A study of Mus musculus with 66 samples.

Results

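The 538 regions described here were placed deep inside long genes of the mouse by the deposited coordinates and distances. The authors had listed them as changed in histone H3.3 occupancy. They were taken from 5 tables that together listed 4651 regions. A region was counted as deep when its table placed it in a gene body, put it more than 100 kb from the gene's start and left its midpoint more than 5 kb from the gene's end. The direction was read from the authors' group means: a region was called gained where the mean of the stimulated or enriched group was above that of its control, and lost where it was below. Of the 538 deep regions 252 were gained and 286 were lost, in 390 genes.

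H3.3 is a variant of histone H3 that can be put into chromatin outside of DNA replication, so that it is the form that a cell no longer dividing, such as a neuron, keeps making and inserting. The HIRA complex places it at active promoters and along transcribed genes, while the ATRX and DAXX pair places it at repeats and telomeres. Long genes are over-represented among genes for synapses and cell adhesion, and in the brain many of them carry enhancers in their introns.

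The groups were read by chromatin immunoprecipitation with an H3.3 antibody, followed by sequencing, all in C57bl/6 mice. In culture, primary cortical neurons taken from embryos at E16.5 and kept 8 days in vitro were depolarised with isotonic KCl for 30 min, 2 hr or 5 hr, and each time had its own unstimulated control. In the animal, hippocampal nuclei were sorted by the neuronal nuclear marker NeuN from mice of about 7 weeks that had lived for 4 weeks in an enriched environment, or from normally housed mice. NeuN+ nuclei are mostly of neurons and NeuN- nuclei are of glia and the other cells. Each table held 3 values a group, except the NeuN+ table with 2. The unstimulated group at 30 min had 4 labelled libraries, 1 of them a repeat, and 3 values. Neither the culture nor the sorted nuclei were checked by expression here, since the tables hold chromatin values only. Among the marker lists used, neuron and endothelial markers had no deep region and the other marker lists had 1 to 3. Marker genes shorter than 100 kb could not hold one, so these counts do not check the cells.

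Some limits of the tables bear on every value below. A table listed only regions that the authors had called on the same libraries: the smallest absolute log2 fold change of a deep region was 1.59 to 1.66, about 3-fold, and the authors' window p was at most 9.94e-05. In each of the tables, 100% of the listed regions had groups that did not overlap. A gene without a listed region was therefore not shown to be unchanged, and the p-values below describe regions already chosen. Except at 5 hr, where each of 3 lane numbers held 1 KCl and 1 unstimulated library, no lane number was shared by the groups compared, so lane and group cannot be told apart. Values are the authors' normalised read counts in the region, scaled within each table, and are not compared between tables. The low values of all 28 library positions were whole multiples of 1 step within 0.1 of a read, which shows what 1 read was worth. Where a group was the higher one, its libraries held a median of 9 to 15 reads at deep regions in culture and 13 to 25 in NeuN+ nuclei. In NeuN- nuclei the medians were 6 to 12 reads, except for the enriched library in position 2, with a median of 2 reads, where the value 5.28 stands for 2 reads.

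The deposited distance did not have the same meaning in every table. In the 5 hr and NeuN+ tables it ran from the 5′ end of the gene on both strands. In the 30 min, 2 hr and NeuN- tables it ran from the lower coordinate for all 192, 201 and 306 assigned regions of minus-strand genes, which is the 3′ end of such a gene. Measured along the strand, 465 of the 538 regions were more than 100 kb from the start and 5 kb from the end. Another 66 were within 100 kb of the start, with 17 at 30 min, 18 at 2 hr and 31 in NeuN- nuclei, and 7 NeuN+ regions were within 5 kb of the end. A further 78 listed regions met both limits along the strand without being among the 538. The distances given below run along the strand of the gene, except for the regions named at the distance limit, which have the deposited distance.

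**Figure D1:**
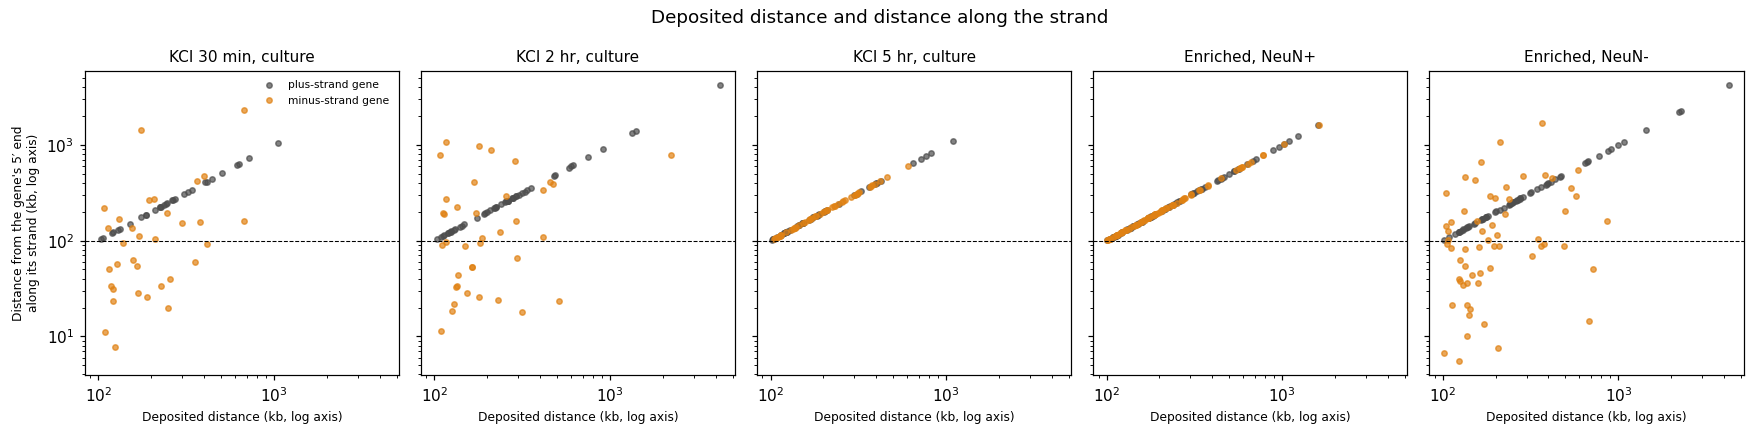
Deposited distance (x axis, kb) against distance from the gene's 5′ end along its strand (y axis, kb) for each deep region, 1 panel per table, both on log axes. Plus-strand genes lie on the diagonal everywhere, and minus-strand genes leave it at 30 min, at 2 hr and in NeuN- nuclei, where points below the dashed line at 100 kb are the 66 regions near a gene's start.

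The sequence of the gained and of the lost deep region with the lowest adjusted p in each table, except the lost one at 5 hr, is given below as an example. All are given on the plus strand of mm9 (NCBI build 37), with CpG dinucleotides in capitals, and all but the one assigned to Galnt2 lay in an intron of the gene named. The Zfp536 and Ptprg regions were 340 and 320 bp long, and their central 300 bases are shown.
Cdh11, gained at 30 min, chr8:105275261-105275480: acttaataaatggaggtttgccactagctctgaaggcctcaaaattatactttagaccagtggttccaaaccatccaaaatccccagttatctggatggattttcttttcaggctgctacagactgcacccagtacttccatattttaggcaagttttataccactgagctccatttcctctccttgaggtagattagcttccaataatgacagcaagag
Zfp536, lost at 30 min, chr7:38419401-38419700: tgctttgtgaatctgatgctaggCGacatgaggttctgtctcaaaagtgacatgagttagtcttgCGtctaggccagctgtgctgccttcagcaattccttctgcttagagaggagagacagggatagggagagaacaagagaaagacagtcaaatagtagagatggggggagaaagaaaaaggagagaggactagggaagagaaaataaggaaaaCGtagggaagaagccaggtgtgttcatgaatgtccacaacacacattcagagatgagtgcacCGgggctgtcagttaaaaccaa
1700112E06Rik, gained at 2 hr, chr14:23748841-23749080: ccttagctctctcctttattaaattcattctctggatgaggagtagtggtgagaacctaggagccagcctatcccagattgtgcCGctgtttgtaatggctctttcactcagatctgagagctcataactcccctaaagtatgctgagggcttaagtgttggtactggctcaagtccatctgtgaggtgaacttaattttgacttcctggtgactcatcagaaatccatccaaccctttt
Dgkb, lost at 2 hr, chr12:39225961-39226220: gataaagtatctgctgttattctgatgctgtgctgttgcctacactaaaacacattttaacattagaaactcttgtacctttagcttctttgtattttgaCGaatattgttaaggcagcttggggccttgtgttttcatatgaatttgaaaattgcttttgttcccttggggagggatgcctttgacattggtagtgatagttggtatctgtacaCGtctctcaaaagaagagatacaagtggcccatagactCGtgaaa
4932438A13Rik, gained at 5 hr, chr3:36916361-36916560: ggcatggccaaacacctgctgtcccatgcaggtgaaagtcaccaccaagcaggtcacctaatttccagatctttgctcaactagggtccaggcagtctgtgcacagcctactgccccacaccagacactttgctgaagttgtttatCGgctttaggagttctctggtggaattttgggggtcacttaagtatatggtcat
Ptprg, gained in NeuN+ nuclei, chr14:12849171-12849470: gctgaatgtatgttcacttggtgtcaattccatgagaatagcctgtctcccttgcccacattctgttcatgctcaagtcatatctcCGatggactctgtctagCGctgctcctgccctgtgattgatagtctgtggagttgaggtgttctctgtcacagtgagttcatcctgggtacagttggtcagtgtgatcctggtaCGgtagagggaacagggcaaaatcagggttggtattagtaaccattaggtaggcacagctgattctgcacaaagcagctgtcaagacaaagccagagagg
Fgf14, lost in NeuN+ nuclei, chr14:124889341-124889540: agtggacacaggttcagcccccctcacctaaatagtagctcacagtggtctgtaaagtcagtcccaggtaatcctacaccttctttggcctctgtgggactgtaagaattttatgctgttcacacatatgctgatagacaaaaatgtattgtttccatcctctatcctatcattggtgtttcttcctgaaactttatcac
Dscam, gained in NeuN- nuclei, chr16:96965061-96965320: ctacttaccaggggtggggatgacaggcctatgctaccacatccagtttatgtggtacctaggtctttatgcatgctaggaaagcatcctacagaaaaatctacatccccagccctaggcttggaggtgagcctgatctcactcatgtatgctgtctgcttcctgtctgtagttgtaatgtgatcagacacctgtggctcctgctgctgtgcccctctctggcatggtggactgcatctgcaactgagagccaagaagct
Galnt2, lost in NeuN- nuclei, chr8:124706521-124706800: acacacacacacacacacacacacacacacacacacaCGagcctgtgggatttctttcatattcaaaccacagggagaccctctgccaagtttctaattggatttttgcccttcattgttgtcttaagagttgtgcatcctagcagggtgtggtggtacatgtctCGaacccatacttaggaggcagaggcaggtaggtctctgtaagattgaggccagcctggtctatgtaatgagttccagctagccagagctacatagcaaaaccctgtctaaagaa

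These stretches held few CpGs, from 0 in the Cdh11, Fgf14 and Dscam regions to 4 in the Zfp536 stretch. They do not stand for all 538 regions. The Galnt2 stretch began in a CA repeat, and its midpoint lay in GENCODE vM1 gene Gm20388. Galnt2 spanned 4430 kb in the table and 114 kb in GENCODE vM1. All 14 deep regions assigned to Galnt2 lay outside the GENCODE gene, so they are not read here as changes in Galnt2. In all, 517 of the 538 midpoints lay inside the GENCODE vM1 gene of the same symbol. By GENCODE vM1, 510 of the 538 regions overlapped no exon and lay in introns (94.8%), 21 overlapped a coding exon, 5 another exon and 2 lay outside genes. Among the other 1641 listed gene-body regions 83.2% were intronic. Of the deep regions, 371 had the shortest listed length of 200 bp.

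The direction of the deep changes differed between the tables in step with the whole of each table. In culture most deep regions had lost H3.3 under KCl at 30 min and 2 hr, and the losses also outnumbered the gains at 5 hr. In the hippocampus most had gained H3.3 under enrichment, in NeuN+ and in NeuN- nuclei. All intervals that follow are exact (Clopper-Pearson) 95% intervals, which cover counting of regions only, and regions of 1 gene are not independent. At 30 min 13 of 64 deep regions were gained (20.3%, interval 11.3 to 32.2%), against 20.1% of the other listed regions and 20.1% of all. At 2 hr 9 of 88 were gained (10.2%, interval 4.78 to 18.5%), against 15% of the others and 14.4% of all. At 5 hr 40 of 100 were gained (40%, interval 30.3 to 50.3%), against 45% of the others and 44.2% of all. In NeuN+ nuclei 96 of 161 were gained (59.6%, interval 51.6 to 67.3%), against 73.1% of the others (interval 70.8 to 75.4%) and 71.8% of all. In NeuN- nuclei 94 of 125 were gained (75.2%, interval 66.7 to 82.5%), against 70.2% of the others and 70.7% of all. The NeuN+ interval was the only one of the 5 that did not reach the share among the other regions. That difference was not tested.

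**Figure D2:**
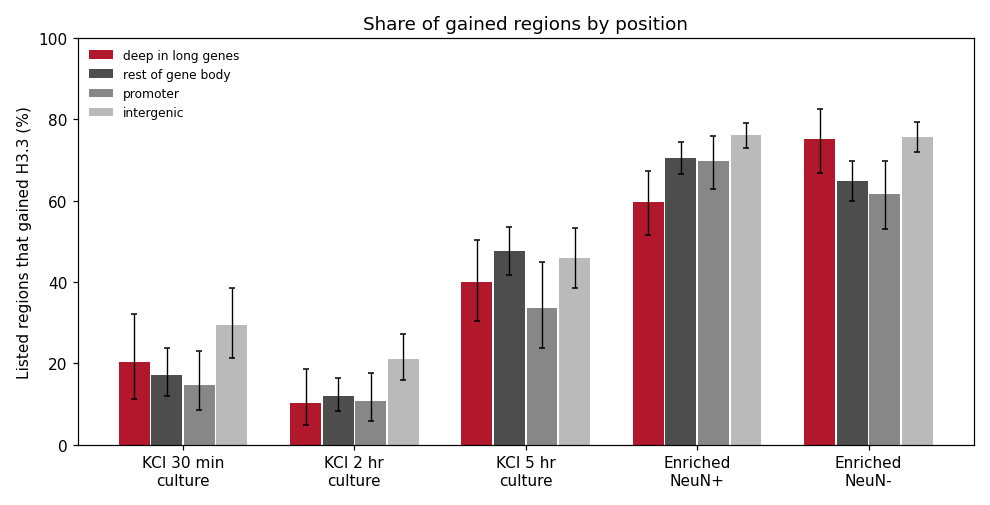
Percent of listed regions that gained H3.3 (y axis) in each table (x axis), for regions deep in long genes, the rest of gene bodies, promoters and intergenic regions, with exact 95% intervals. Deep regions stand at 20.3, 10.2 and 40% at the 3 KCl times and at 59.6 and 75.2% in the enriched NeuN+ and NeuN- nuclei.

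By the authors' adjusted p of 0.05 or less, 13 deep regions rose and 51 fell at 30 min, where 19.9% of all listed regions were called gained and 78.6% lost. At 2 hr 9 rose and 79 fell, where 14.2% and 85.3% of all listed regions were called. In NeuN+ nuclei 92 rose and 64 fell, where 70.1% and 27.7% were called. In NeuN- nuclei 94 rose and 31 fell, where 70.6% and 29.3% were called. At 5 hr 0 of the 100 deep regions passed, with adjusted p of 0.0684 to 0.502, although all 100 had an unadjusted p under 0.05; only 1.65% and 1.35% of the listed regions passed at all. The labels and headers do not name the authors' test. Nothing is read from these shares about deep regions, which had been chosen on the same libraries.

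By position in GENCODE vM1 genes alone, a wider set than the 538, deep gene space was 14% of the mm9 sequence, or 359 Mb, and 760 listed regions had their midpoint in it. It held 19.7% of the listed regions at 30 min, 21.2% at 2 hr, 17.8% at 5 hr, 13.6% in NeuN+ nuclei and 15.2% in NeuN- nuclei. Per Mb, deep gene space held 0.251 regions at 30 min, against 0.329 in the rest of gene bodies and 0.0923 outside genes. In NeuN+ nuclei it held 0.621 regions per Mb, against 0.882 in the rest of gene bodies and 0.536 outside genes. Deep gene space thus held more listed regions per Mb than intergenic sequence and fewer than the rest of gene bodies in both tables. Mappability and input coverage of these classes were not tested.

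After 30 min of KCl the gained deep regions of lowest adjusted p lay in Cdh11, Zfpm2, Trio, Dgki and Cdh2. Cdh11 and Cdh2 encode cadherins that join cells, Trio a guanine nucleotide exchange factor that steers axons, Dgki a diacylglycerol kinase and Zfpm2 a cofactor of GATA factors. In Cdh11 the region shown above held 15.57, 15.77 and 12.35 normalised reads in KCl cultures, against 3.80, 5.00 and 1.95 in unstimulated cultures (log2 fold change 2.02, the authors' adjusted p = 0.014). The region lay 33.6 kb from the start of this minus-strand gene, and those in Trio and Cdh2 lay 40 and 54.2 kb from theirs. All of these were within 100 kb of the start along the strand. In Zfpm2, 325 kb from the start, the values were 12.11, 14.72 and 13.38 in KCl cultures, against 6.34, 1.67 and 1.95 in unstimulated cultures (log2 fold change 2.01).

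The lost deep regions of lowest adjusted p at 30 min lay in Zfp536, Mpp7, Ptprd, Klhl29 and Stk32b. Zfp536 encodes a zinc finger repressor of neuronal differentiation, Mpp7 a scaffold of cell polarity, and Ptprd a receptor tyrosine phosphatase that organises synapses. The Zfp536 region held 6.05, 4.21 and 2.06 normalised reads in KCl cultures, against 21.55, 16.65 and 16.60 in unstimulated cultures (log2 fold change -2.15, the authors' adjusted p = 0.00552). Relative to input it stood at 2.52 times in KCl and 2.88 times in unstimulated cultures, a far smaller difference. It was the only deep region of that table with an adjusted p of 0.01 or less. The Ptprd region, 1440 kb from the start, held 4.32, 4.21 and 1.03 in KCl cultures, against 16.48, 11.66 and 14.65 in unstimulated cultures. These lost regions were at about 4 normalised reads or fewer in KCl cultures in the mean. Along the strand, those in Mpp7 and Stk32b lay only 28.6 and 19.6 kb from the start of their genes.

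**Figure D3:**
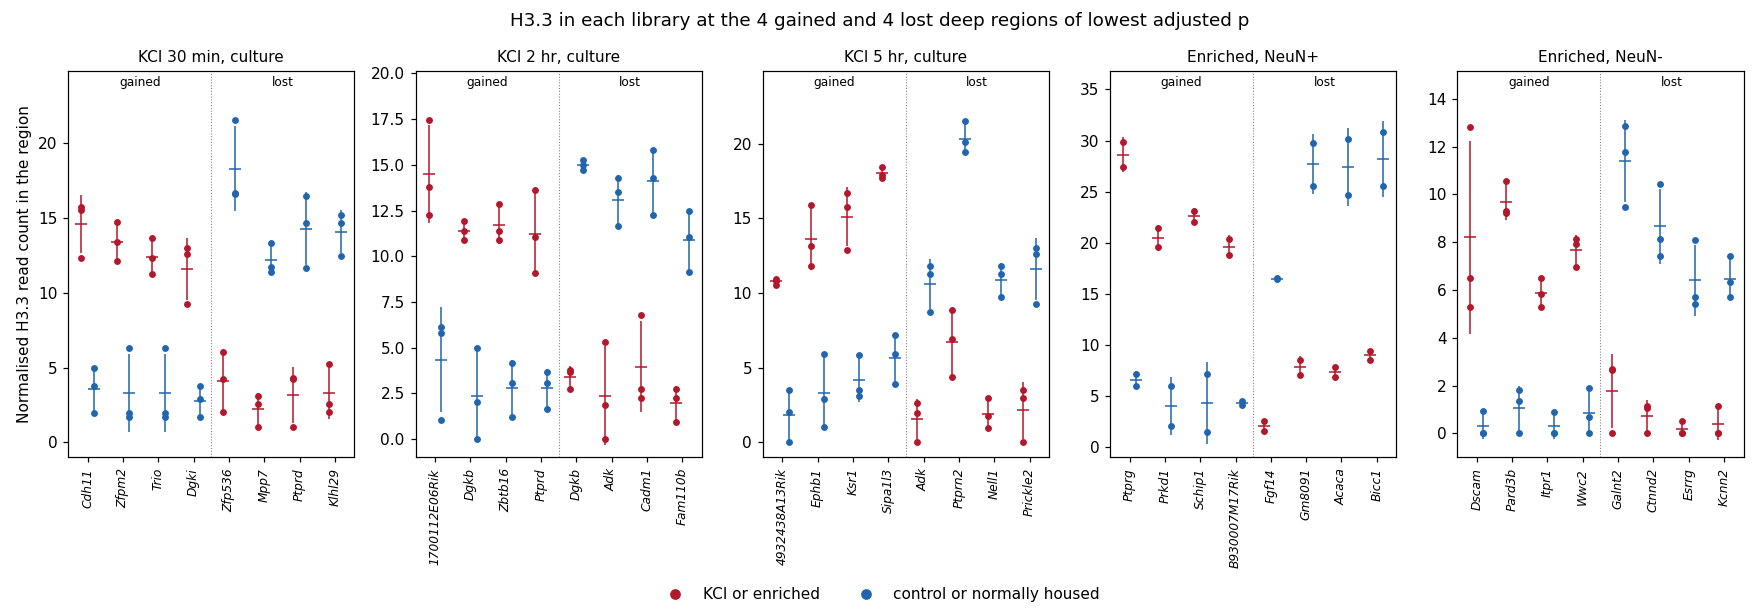
Normalised H3.3 read count (y axis) in each library (points; mean and SD as bar and line) at the 4 gained and the 4 lost deep regions of lowest adjusted p, 1 panel per table, with the KCl or enriched group left of its control in each pair. Groups do not overlap at any region shown, which the authors' selection fixes, and each panel has its own scale.

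At 2 hr the gained regions of lowest adjusted p lay in the uncharacterised gene 1700112E06Rik, in Dgkb, Zbtb16, Ptprd and Cdh13. The lost ones lay in Dgkb, Adk, Cadm1, Fam110b and Dscam. Adk encodes the kinase that clears adenosine, and Cadm1 and Dscam encode adhesion molecules of the synapse and of neurites. The gained 1700112E06Rik region held 13.78, 17.43 and 12.26 normalised reads in KCl cultures, against 1.02, 5.83 and 6.14 in unstimulated cultures. Fam110b had 0.92, 2.27 and 2.72 in KCl cultures, against 9.16, 12.50 and 11.05 in unstimulated cultures (log2 fold change -2.47, the authors' adjusted p = 0.0128). Cadm1 was the only one of these 10 regions to overlap a coding exon. Along the strand, the Zbtb16 region lay only 28.3 kb from the start of its gene.

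Opposite changes could lie in the same gene, and in some genes close together. In Dgkb, a neuronal diacylglycerol kinase, the lost region shown above lay 619 kb from the start and the gained one at 600 kb, only 19.1 kb apart. The gained Dgkb region held 11.94, 11.37 and 10.89 normalised reads in KCl cultures, against 2.04, 5.00 and 0.00 in unstimulated cultures. The lost one held 3.68, 3.79 and 2.72 in KCl cultures, against 15.27, 14.99 and 14.73 in unstimulated cultures. In Ptprd at 2 hr a gained and a lost region lay 16.6 kb apart. The gained one held 11.03, 9.09 and 13.62 in KCl cultures, against 3.05, 1.67 and 3.68 in unstimulated cultures. The lost one held 4.59, 2.27 and 0.00 in KCl cultures, against 12.22, 10.00 and 13.50 in unstimulated cultures. Over the whole set, 35 pairs of a gene and a table had 2 or more deep regions. In 13 of them the regions went both ways, in 14 all were lost and in 8 all were gained. The closest opposite regions of those 13 lay in Ptprg in NeuN+ nuclei, 10.7 kb apart, and the widest gap was 1140 kb, in the span assigned to Galnt2 in NeuN- nuclei.

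At 5 hr, where no deep region passed the adjusted p, the gained regions ranked first lay in 4932438A13Rik, Ephb1, Ksr1, Sipa1l3 and Ncam2, and the lost ones in Adk, Ptprn2, Nell1, Prickle2 and E130308A19Rik. The 4932438A13Rik region held 10.82, 10.53 and 10.91 normalised reads in KCl cultures, against 3.54, 2.05 and 0.00 in unstimulated cultures (log2 fold change 2.53, the authors' adjusted p = 0.0706). The Adk region held 0.00, 2.63 and 1.98 in KCl cultures, against 11.80, 11.28 and 8.73 in unstimulated cultures (log2 fold change -2.78, the authors' adjusted p = 0.0684). At 2 hr another Adk region had been at 1.84, 5.30 and 0.00 in KCl cultures, against 14.26, 11.66 and 13.50 in unstimulated cultures, though relative to input it stood at 1.51 times in KCl and 1.78 times in unstimulated cultures. Those 2 regions lay 315 and 327 kb from the start of Adk.

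Under enrichment, NeuN+ nuclei gained H3.3 in Ptprg, Prkd1, Schip1, B930007M17Rik and Fndc3b at lowest adjusted p, and lost it in Fgf14, Gm8091, Acaca and Bicc1. Ptprg encodes a receptor tyrosine phosphatase that binds contactins, Schip1 a protein of the axon initial segment and Prkd1 a protein kinase. Fgf14 encodes an intracellular partner of voltage-gated sodium channels. The Ptprg region held 29.83 and 27.40 normalised reads in enriched mice, against 6.02 and 7.19 in normally housed mice (log2 fold change 2.11, the authors' adjusted p = 0.0116). Another 2 Ptprg regions of that table were lost. The Fgf14 region held 1.57 and 2.57 in enriched mice, against 16.56 and 16.44 in normally housed mice (log2 fold change -3.0, the authors' adjusted p = 0.0124). With 2 libraries a group, each was above or below both of the other group, as in 100% of the regions listed for NeuN+ nuclei. The Prkd1 region lay 4.0 kb from the gene's end.

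In NeuN- nuclei the gained regions of lowest adjusted p lay in Dscam, Pard3b, Itpr1, Wwc2 and Gm15710, and the lost ones in the span assigned to Galnt2 and in Ctnnd2, Esrrg, Kcnn2 and Eya4. Itpr1 encodes the calcium release channel of the endoplasmic reticulum, Ctnnd2 the junction protein delta-catenin, Esrrg an orphan nuclear receptor and Kcnn2 a calcium-activated potassium channel. The Dscam region held 12.80, 5.28 and 6.51 normalised reads in enriched mice, against 0.95, 0.00 and 0.00 in normally housed mice (log2 fold change 4.70, the authors' adjusted p = 0.00287). The Ctnnd2 region held 1.16, 0.00 and 1.08 in enriched mice, against 10.43, 7.43 and 8.14 in normally housed mice. Both Esrrg regions were lost, the first with 0.00, 0.00 and 0.54 in enriched mice, against 5.69, 8.11 and 5.43 in normally housed mice. Large log2 fold changes in this table rest on a lower group of about 1 read or none in the median library.

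Genes for synaptic adhesion and axon guidance, the longest list used, had 64 deep regions in 41 of its 110 genes. In culture its regions were mostly lost, 9 of 13 at 30 min and 12 of 15 at 2 hr, where 51 of 64 and 79 of 88 of all deep regions were lost. All of those passed the authors' adjusted p. In NeuN- nuclei 13 of its 15 regions were gained (86.7%), with a median log2 fold change of 2.68, where 75.2% of all deep regions were gained with a median of 2.59. In NeuN+ nuclei 5 of 13 were gained, where 96 of 161 of all deep regions were gained. Nrxn3, which encodes a presynaptic adhesion molecule, held 5.49 and 5.99 in enriched NeuN+ nuclei, against 22.58 and 19.52 in normally housed mice. A different Nrxn3 region held 5.82, 7.93 and 7.05 in enriched NeuN- nuclei, against 1.90, 0.68 and 0.00 in normally housed mice. The list was chosen with earlier results of these data known, and no test of it was run.

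Genes for receptors, channels and synaptic proteins had deep regions in both directions. Glutamate receptor genes had 7, of which 2 at 2 hr were lost and passed the adjusted p. The one in Grin2b held 0.92, 6.06 and 4.09 normalised reads in KCl cultures, against 14.26, 14.99 and 12.27 in unstimulated cultures. GABA and glycine receptor genes had 6 (2 gained, 4 lost). Among them was Gabrb1, with regions lost at 30 min and 5 hr and another gained in NeuN- nuclei. Relative to input the 30 min region was higher in KCl cultures, at 1.94 times against 1.58 times in unstimulated ones. Voltage-gated and calcium-activated ion channel genes had 19, of which 8 were gained and 11 lost. At 2 hr all 3 of these were lost, in the calcium channel genes Cacna2d1, Cacna1e and Cacna1d, where 79 of 88 of all deep regions were lost. Genes of postsynaptic scaffolds had 19 (7 gained, 12 lost), genes of presynaptic release had 9 (3 gained, 6 lost), genes of calcium and cyclic nucleotide signalling had 17 (8 gained, 9 lost) and splicing regulators had 6 (3 gained, 3 lost). These totals pool the 5 tables, over which 252 of all 538 deep regions were gained. The share gained ran from 10.2% at 2 hr to 75.2% in NeuN- nuclei, so a pooled split also depends on which tables held the regions. At 5 hr none of the regions passed the adjusted p.

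Chromatin and transcription regulators had 21 deep regions, of which 5 were gained and 16 lost, where 252 of all 538 deep regions were gained. That total pools the tables, with 5 regions at 30 min, 6 at 2 hr and 3 at 5 hr, where none passed the adjusted p. At 2 hr all 6 were lost and passed the adjusted p, where 79 of 88 of all deep regions were lost and all 88 passed, among them Auts2, Thrb, the thyroid hormone receptor beta gene, and Myt1l, a gene of neuronal identity. The Thrb region held 0.92, 4.55 and 0.00 normalised reads in KCl cultures, against 10.18, 10.00 and 11.05 in unstimulated cultures, but relative to input it did not fall, at 1.15 times in KCl and 1.13 times in unstimulated cultures. In NeuN+ nuclei all 3 were gained and 2 passed, where 96 of 161 of all deep regions were gained and 156 passed. In NeuN- nuclei 1 of 4 was gained, and 2 of the 3 lost ones lay in Esrrg. Genes of common fragile sites, long genes that break under replication stress, had 36 deep regions in 17 of 31 genes (14 gained, 22 lost), again pooled over the tables. At 2 hr all 7 were lost, and in NeuN- nuclei 7 of 10 were gained, where 79 of 88 of all deep regions were lost at 2 hr and 75.2% were gained in NeuN- nuclei.

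Marker genes of other cell types held few of the deep regions. A marker gene shorter than 100 kb could hold none, so these counts do not measure cell content. The astrocyte marker Gpc5 had a lost region at 2 hr and gained ones in NeuN+ and NeuN- nuclei. Its NeuN- region held 5.82, 5.28 and 4.88 normalised reads in enriched mice and was listed at 0.00 in all 3 normally housed libraries. The microglial gene Dock8 had 2 gained regions in NeuN+ nuclei, the first with 16.48 and 18.84 in enriched mice, against 4.52 and 3.08 in normally housed mice. The oligodendrocyte lineage genes Zfp536, Pde4b and St18 had 1 each, and the interneuron gene Erbb4 a lost one in NeuN+ nuclei. The part of other cell types in these results was not tested.

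The same genes came up in several tables, with regions that were never the same. Of the 390 genes, 304 had deep regions in 1 table, 73 in 2, 11 in 3 and 2 in 4. Ptprd and Ptprn2, both receptor tyrosine phosphatase genes, were the pair in 4 tables. None of the 538 regions overlapped a listed region of another H3.3 table by 1 bp or more, the smallest gap being 361 bp, and 19 lay within 10 kb of one. The nearest pairs in a gene that had deep regions in both tables lay in Gabrb1, where a region lost at 30 min and one lost at 5 hr were 1701 bp apart. The 30 min region held 3.46, 5.26 and 1.03 normalised reads in KCl cultures, against 15.21, 10.82 and 11.72 in unstimulated cultures, but relative to input it was higher in KCl cultures, at 1.94 times against 1.58 times in unstimulated ones. The 5 hr region held 2.95, 2.63 and 0.99 in KCl cultures, against 9.44, 9.23 and 11.64 in unstimulated cultures.

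**Figure D4:**
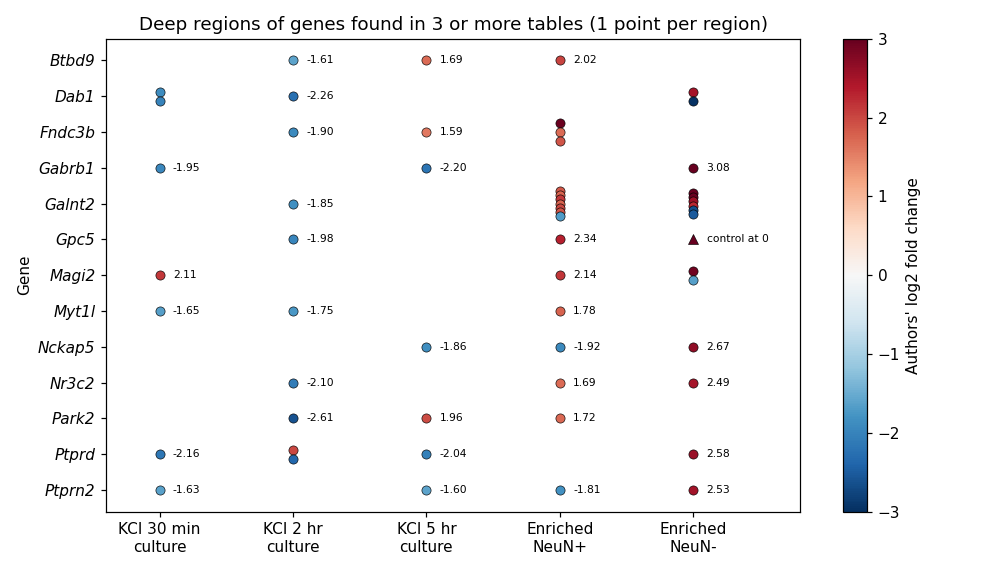
The authors' log2 fold change (colour, KCl over control or enriched over normally housed) of each deep region in the 13 genes found in 3 or more tables (rows), by table (columns), with its value where a gene had 1 region in a table. Lost regions (blue) fill most of the culture columns and gained ones (red) most of the enriched columns, and the triangle marks Gpc5, whose normally housed libraries were all at 0.

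NeuN+ and NeuN- nuclei shared 23 genes with deep regions, 16.4% of the NeuN+ genes and 20.7% of the NeuN- genes. In 19 of these each table had 1 direction: 11 were gained in both, 0 lost in both, 3 gained in NeuN+ and lost in NeuN- nuclei, and 5 the other way. Between 30 min and 2 hr 9 genes were shared (14.5% and 11% of each list), 8 of them with 1 direction in each table, of which 6 were lost in both. These tables had no sample in common, and most regions of each table went one way, so nothing further is read from a shared direction.

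Genes with a listed promoter region numbered 103 at 30 min, 120 at 2 hr and 83 at 5 hr. They numbered 197 in NeuN+ and 138 in NeuN- nuclei. No share over all genes was computed, so the counts that follow are a description. At 30 min 1 of 62 genes with a deep region also had a listed promoter region in that table, at 2 hr 1 of 82, at 5 hr 0 of 96, in NeuN+ nuclei 1 of 140 and in NeuN- nuclei 1 of 111. These genes were Ablim1, Negr1, Cacna1a and Dok6. Another region elsewhere in the gene body was listed for 1, 11, 7, 14 and 12 genes.

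The authors' ratios to input gave the same direction for most deep regions. With a finite ratio in both groups, 59 of 62 deep regions went the same way at 30 min and 82 of 87 at 2 hr. At 5 hr all 100 did, in NeuN+ nuclei all 161 and in NeuN- nuclei all 116. The exceptions were Gabrb1, Rai14 and Adam12 at 30 min, and 5 regions at 2 hr, among them those in Cadm1, Ptprk, Bai3 and Thrb. All 8 were lost by the normalised counts and stood slightly higher in KCl cultures relative to input, as with the Rai14 region, at 2.36 times input in KCl and 1.68 times in unstimulated cultures.

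Base composition separated gained from lost deep regions in some tables. In NeuN+ nuclei the median G+C content was 52.4% in gained and 45.7% in lost deep regions, and at 5 hr it was 50% and 42.2%. At 30 min the order was the other way, 41.4% and 46.7%, and in NeuN- nuclei the medians were 44.8% and 45%. The other listed regions had the same order in those tables, with 53% and 46.5% in NeuN+ nuclei, 51.4% and 44.5% at 5 hr and 45.5% and 47.5% at 30 min. These values are a description, and the part of base composition in the direction was not tested.

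**Figure D5:**
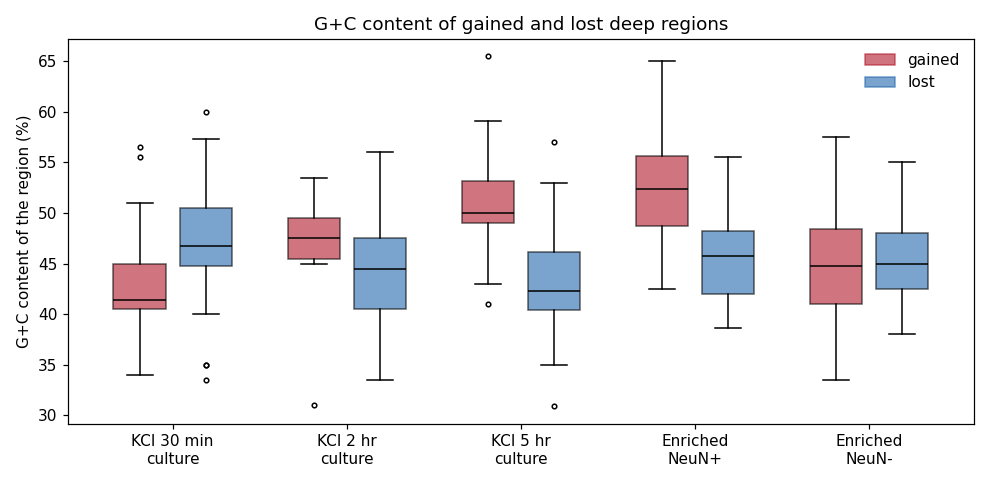
G+C content (y axis, %) of gained and lost deep regions by table (x axis); boxes span the quartiles with the median as a line, whiskers reach the last value near the box and points lie beyond. Gained regions lie above lost ones at 2 hr, at 5 hr and in NeuN+ nuclei, below them at 30 min and level with them in NeuN- nuclei.

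Short motifs of factors active after depolarisation were searched on both strands in 200 bp windows at the midpoints. The AP-1 letters TGANTCA were in 6.25% of deep windows at 30 min, against 6.36% of the other listed windows, and in 5.68% at 2 hr, against 6.82%. At 5 hr they were in 13% of deep windows, against 7.76% of the others. In NeuN+ nuclei the shares were 6.83% and 5.27%, and in NeuN- nuclei 5.6% and 6.16%. The cyclic AMP response element TGACGTCA was in 0 of 538 deep windows and in 3 of 4113 others, and the E-box CAGCTG was in 12.6% and 11.9%. A match describes the letters only.

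CATCH-IT, which captures chromatin that holds newly made histones and was listed here for cultures with 5 hr of KCl over unstimulated ones, was the other chromatin readout of turnover used here, and 7 of the 538 deep regions (1.3%) overlapped one of its 53020 listed regions by 1 bp or more, against 1.31% of the other H3.3 regions. They lay in Cadm2, Cdh2, Atp9b, Odz3, Park2, 8030462N17Rik and 2210009G21Rik. In 3 both readouts were gained, in 0 both lost, in 3 H3.3 was gained and CATCH-IT lost, and in 1 the other way. Only the Atp9b region came from the 5 hr table, the KCl time of CATCH-IT, while 2 came from 30 min and 4 from hippocampal nuclei, so the directions compare unlike conditions.

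The distance limit was set on the deposited distance, which at 2 hr and in NeuN- nuclei ran from the lower coordinate of the gene. By that distance, a region just inside was Osbpl8 at 100873.5 bp. It had a mean of 6.1 ± 1.36 normalised reads in enriched and 20.3 ± 3.2 in normally housed NeuN+ nuclei (SD, n = 2). Just outside were Myo18b at 99964 bp, with 2.53 ± 0.617 in KCl and 11.6 ± 0.797 in unstimulated cultures at 2 hr (SD, n = 3), and Fam190a at 99911 bp, with 0.36 ± 0.624 in enriched and 6.57 ± 0.221 in normally housed NeuN- nuclei (SD, n = 3). Along the strand, the member farthest from a gene's start at 30 min was assigned to Fgfr2, at 2330 kb. Fgfr2 spanned 3010 kb in GENCODE vM1, and that span was not checked in another annotation. At 5 hr the farthest lay in Dlg2 (1100 kb) and in NeuN+ nuclei in Lrp1b (1620 kb), inside the GENCODE genes. At 2 hr and in NeuN- nuclei it lay in the span assigned to Galnt2. Outside the span assigned to Galnt2, the most deep regions of 1 gene in 1 table were 3, in Fndc3b and Ptprg in NeuN+ nuclei and in Gm15710 in NeuN- nuclei. In Fndc3b all 3 NeuN+ regions were gained, the first with 15.70 and 16.27 normalised reads in enriched mice, against 0.00 and 4.11 in normally housed mice.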

How the data were processed

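H3.3 chromatin immunoprecipitation was read from 5 deposited tables. The reads had been handled with bedtools 2.16.2 and Bowtie 0.12.7 on build mm9, per the submitters' processing notes. No source used here names the region caller or its test. Per the file headers, the authors deposited for each region the normalised counts of each library packed in 1 cell without library names, their group mean (a coverage signal), a ratio to input, a log2 fold change, a p-value and an adjusted p-value. Values per position are therefore positions in the cell, not named replicates. The labels' protocols speak of biological triplicates in culture and duplicates in vivo, while the NeuN- groups have 3 libraries each. Since the authors' test is not named, what spread their p-values measure is not known.

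Deep regions were selected by the deposited columns. Sequence and features came from NCBI build 37 and GENCODE vM1; the check of builds found 2350 of 2350 Ensembl assignments overlapping their GENCODE gene. Python 3.11.15 with pandas 2.3.3, numpy 2.4.6, scipy 1.17.1, pysam 0.24.0 and samtools 1.23.1 was used. The selection and directions were tested on simulated regions. No count test was run, because the tables hold regions already chosen on these libraries. Intervals are exact 95% intervals and cover counting error only.

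Members and 16 gene lists were chosen with earlier results of these data known. The text names, per table, the 5 gained and 5 lost regions of smallest adjusted p, up to 4 of a list, genes in 3 or more tables, the farthest member, the gene with most members and those nearest the limit; other examples were chosen after their values were seen. Some of these are not reported here. Unused columns of per-sample values numbered 0. The alternatives were other distance limits, 1 region per gene, a level minimum, leaving out each value, direction relative to input, a stricter adjusted p and, added after seeing the data, distances along the strand and midpoints inside the GENCODE gene.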

Additional observations from a re-analysis of the deposited data

Results flagged for a closer look

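Genes with deep regions in 3 or more tables were compared within the KCl tables and, separately, within the enrichment tables. Counting only those whose regions all went 1 way within each table of a contrast, 5 went opposite ways in different tables of the same contrast. Genes that differed only between culture and hippocampus, such as Gabrb1, Gpc5 and Myt1l, are not in that count. Ptprd, Magi2, Dab1 and Galnt2 held both directions within a table and are left out of that count. Each gene's regions lie at different places, the difference between tables was not tested, and the values are the authors' log2 fold changes. In Btbd9 the region was lost at 2 hr (-1.61) and another was gained at 5 hr (1.69). In Fndc3b a region was lost at 2 hr (-1.90) and another gained at 5 hr (1.59). In Park2, the gene of the ubiquitin ligase parkin, a region was lost at 2 hr (-2.61) and another gained at 5 hr (1.96). In Nckap5 a region was lost in enriched NeuN+ nuclei (-1.92) and another gained in enriched NeuN- nuclei (2.67). In Ptprn2 a region was lost in enriched NeuN+ nuclei (-1.81) and another gained in enriched NeuN- nuclei (2.53). The 5 hr values did not pass the authors' adjusted p.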

How the results depend on the processing

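Of 190 alternative values, 164 stayed close to the value reported: a count within 1.5 times, or a share of gained regions inside its exact 95% interval. Some of the 164, counts and shares alike, could not move, so the total overstates how stable the results are. The adjusted p was not recomputed, so at 5 hr no subset of the deep regions could hold one past it. Asking for a higher group mean of at least 10 left out no region at 30 min, at 2 hr or in NeuN+ nuclei. Keeping only regions past the adjusted p left out none at 30 min, at 2 hr or in NeuN- nuclei. The share of gained regions left its interval in 1 of 44 cases, in NeuN- nuclei with a higher group mean of at least 10, where it was 87.5% of the 8 regions left, 7 gained and 1 lost past the adjusted p. The other changes were in counts. With the limit at 50 kb, gained and lost regions past the adjusted p numbered 22 and 79 at 30 min, 15 and 128 at 2 hr, and 2 and 3 at 5 hr; gained ones numbered 159 in NeuN+ nuclei, and 156 were gained and 57 lost in NeuN- nuclei. With it at 200 kb they were 8 and 27 at 30 min, 41 and 32 in NeuN+ nuclei and 47 and 16 in NeuN- nuclei, and 40 were lost at 2 hr. A limit further in or out takes fewer or more regions by construction. At an adjusted p of 0.01 or less, 0 were gained and 1 lost at 30 min, 0 and 0 at 2 hr, and 0 and 0 in NeuN+ nuclei. Relative to input, 14 were gained at 2 hr. Leaving out 1 value cannot change a direction where groups do not overlap, so the 28 such shares are not counted here. With the fold still at least 3, regions called without 1 value numbered 11 to 13 gained and 38 to 50 lost at 30 min, 8 to 9 and 68 to 77 at 2 hr, 68 to 90 and 51 to 59 in NeuN+ nuclei, and 92 to 94 and 30 to 31 in NeuN- nuclei. With distances along the strand, 18.2, 8.08, 40, 59.7 and 77.4% were gained at 30 min, 2 hr, 5 hr, in NeuN+ and in NeuN- nuclei. No paired analysis was possible because the packed values carry no library names and the authors' test could not be refitted. Depth limits the NeuN- table most, where 1 enriched library rests on a median of 2 reads per gained region.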
